A study of Mus musculus with 419 samples.

Results

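The genes described here encode the subunits of the proteasome, the protease that degrades ubiquitin-tagged proteins. Members were the rows of the count table with symbols Psma, Psmb, Psmc or Psmd followed by a number, leaving out the immunoproteasome genes Psmb8, Psmb9 and Psmb10, and with at least 100 reads summed over all libraries. The rule gave 36 genes of 55487, and no measured response entered it. They comprise 8 genes of the alpha ring, 8 of the beta ring, 6 ATPases of the base, 3 other base subunits, 8 lid subunits and 3 chaperones of base assembly.

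Bulk poly(A) sequencing covered 419 libraries and 19 tissues of CBA/CaJ mice kept as a model of REDs, the energy shortage known in athletes. Each library came from an energy-sufficient (Control) or energy-deficient (Deficient) female or male, taken at ZT05 or ZT17, that is 5 or 17 h on the zeitgeber clock, with 3 replicates in nearly all of the 140 groups. The tissues of a sex came from the same animals, 12 females and 2 sets of 12 males numbered apart, so tissues of 1 sex are not independent of each other. How the deficiency was imposed and the age of the mice are not given in the sources used here; both arms are CBA/CaJ mice with no allele named in the labels.

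The proteasome is a barrel of stacked rings capped by a regulatory particle. Subunits of the alpha ring gate the barrel, and beta subunits form its wall and carry the catalytic sites, among them Psmb5 (chymotrypsin-like), Psmb6 (caspase-like) and Psmb7 (trypsin-like). In the regulatory particle a ring of ATPases unfolds the substrate, while base and lid subunits such as Psmd4 and Psmd14 bind ubiquitin and remove it. In skeletal muscle the pathway is known for the loss of protein during fasting and disuse, when the ubiquitin ligases Fbxo32 (atrogin-1) and Trim63 (MuRF1) tag contractile proteins.

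Library totals ran from 5777450 to 53598697 reads, and the reads outside mitochondrially encoded and rRNA-like genes from 316976 to 48517914. In 58 libraries, all from the first set of males, those genes took over 50% of the reads. The 2 sets of males were unequally spread. Male kidney, adrenal gland, soleus, tibialis anterior, extensor digitorum longus (EDL) and the tendons of these last 2 came from the second set alone. Sex and set of animals cannot be told apart in these tissues. Levels below are CPM, the reads of a gene scaled to a fixed library size, on TMM-scaled sizes. These sizes kept their ratios within a tissue and sex. Their geometric mean there was set to that of the reads outside mitochondrial and rRNA-like genes. A gene is called when its adjusted p is under 0.05 in edgeR's quasi-likelihood test, each sex fitted alone and the Benjamini-Hochberg adjustment taken over all genes tested in the tissue. Log2 differences are Deficient minus Control averaged over both times. A p weighs such a difference against the spread between mice of the same treatment and time.

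Energy deficiency moved the proteasome genes in opposite directions in different organs. In females 75 of 619 tested pairs of a member and a tissue were called higher and 45 lower. These are 12.1% and 7.27%, against 6.79% and 7.42% of all genes. Summed over tissues, the female share of lower calls was thus near that of all genes. In males 22 of 580 pairs (3.79%) were called higher and 26 (4.48%) lower, against 2.3% and 2.45% of all genes. The lower calls lay mostly in 2 organs, with 32 in the uterus and 26 in the male kidney, and the higher calls lay mostly in hindlimb muscle. In both sexes edgeR called no member in the lung, adrenal gland, gastrocnemius, EDL tendon or tibialis anterior tendon, nor in the male pituitary, heart, liver, brown fat, spleen, testis, quadriceps or gastrocnemius tendon. In these 18 tissue and sex pairs 0 to 17 members had an unadjusted p under 0.05. DESeq2 called 4 members higher in the male gastrocnemius tendon, 2 in the female gastrocnemius and 2 in the female EDL tendon. It called 1 lower in the male liver and 0 in the other 14. The share of all genes that DESeq2 called in these tissues is not given here. In bulk tissue, fewer cells of a type and less RNA per cell cannot be told apart.

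**Figure D1:**
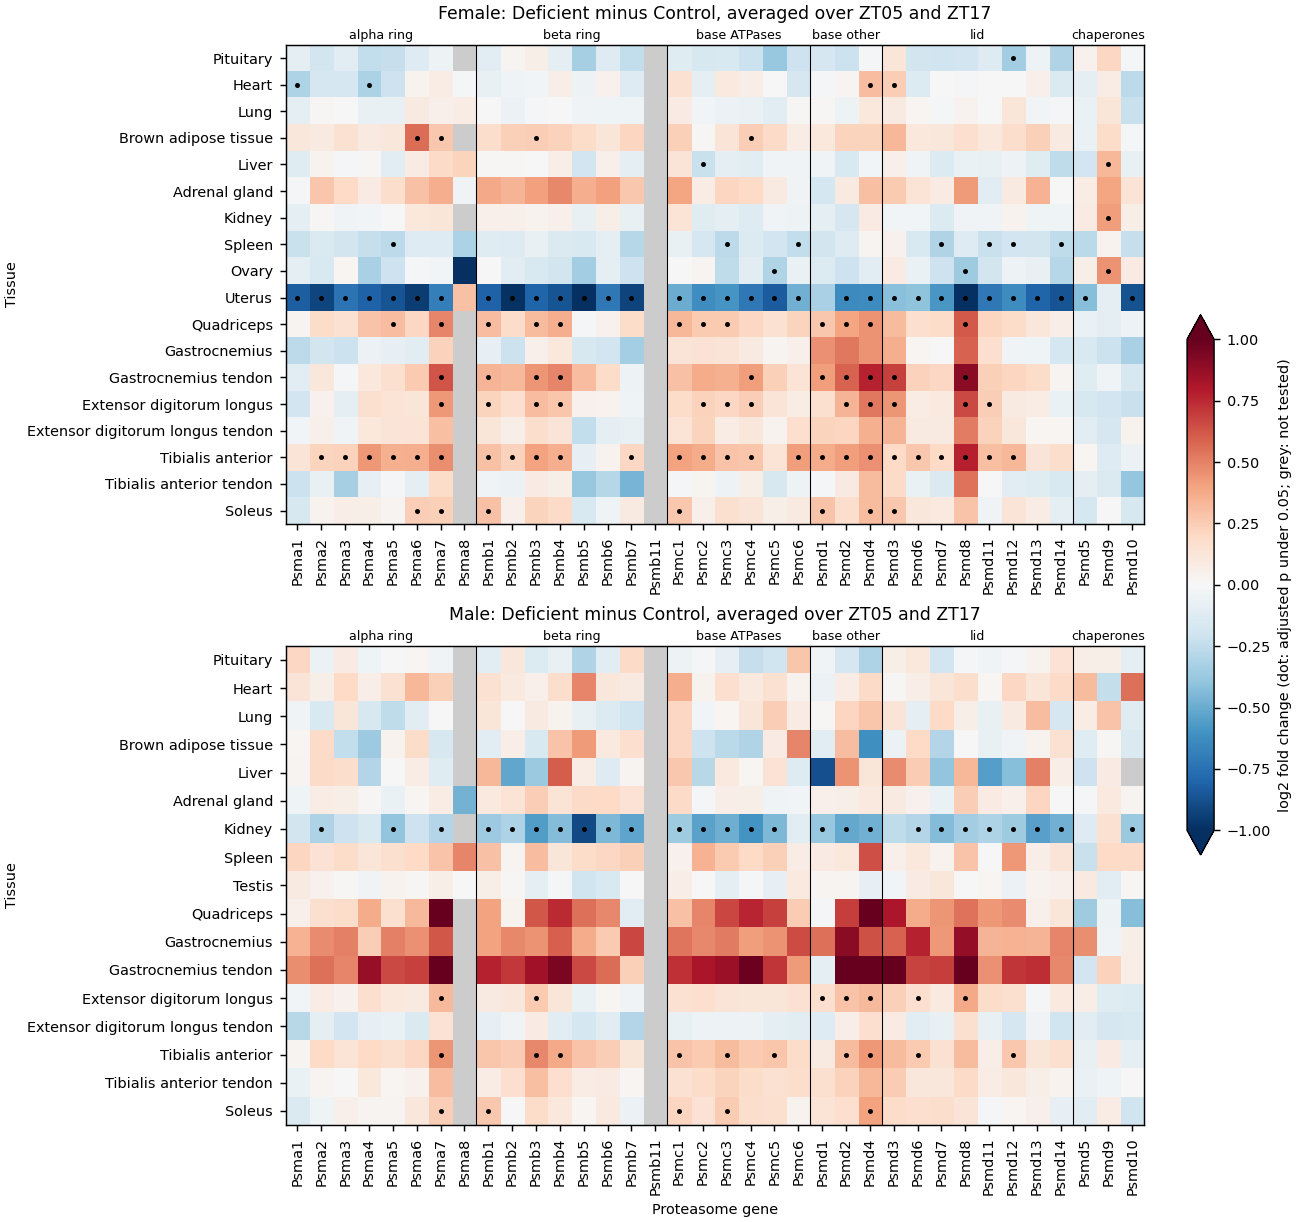
Log2 fold change of each proteasome gene (columns, grouped by role) in each tissue (rows), Deficient minus Control, for females (top) and males (bottom); dots mark adjusted p under 0.05 and grey cells genes not tested. The female uterus carries 32 lower calls and the male kidney 26, while the female tibialis anterior carries 25 higher calls.

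In the uterus nearly the whole complex fell. Of 35 members tested, 32 were called lower and 0 higher, against 23.8% of all genes called lower in this tissue. Their median difference was -0.71 on the log2 scale, beside -0.02 over all genes. By role, 7 of 8 alpha, 7 of 7 beta, 6 of 6 ATPase, 2 of 3 other base, 8 of 8 lid and 2 of 3 chaperone genes fell. The 3 not called were the base scaffold Psmd1 (-0.33), the chaperone Psmd9 (-0.10) and the testis-type alpha subunit Psma8 (0.29).

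The beta-ring gene Psmb2 had the smallest adjusted p. Its lowest, median and highest levels were 96.2, 122 and 134 CPM in the 6 Control uteri and 52.8, 58.4 and 76.1 CPM in the 6 Deficient uteri. The arms did not overlap, and the log2 difference was -0.98 (SE 0.12, adjusted p 0.000254 by edgeR). Psmb5, the chymotrypsin-like site, went further, from 35.1, 51.2 and 58.4 CPM to 10.8, 16.3 and 27.9 CPM. That is a log2 difference of -1.54 (SE 0.20, adjusted p 0.000324 by edgeR), again with every Deficient uterus below every Control uterus. The trypsin-like subunit Psmb7 fell by 0.93 and the alpha-ring genes Psma1 and Psma4 by 0.82 and 0.81. The ATPase Psmc4 and the lid gene Psmd11 each fell by 0.71. In 25 of the 35 members tested, Deficient levels lay wholly below Control levels, as they did in 10.5% of all genes.

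Summed over the 36 genes, the uterus held 4550 to 5424 CPM in Control mice (median 5233) and 2654 to 3936 CPM in Deficient mice (median 3078). These sums did not overlap. Partner genes fell with the subunits: Pomp, which helps build the core particle, by 1.18, and Sem1, a small lid subunit outside the naming rule, by 1.16, among 7 of 10 assembly and bound-enzyme genes called lower. Of the 8 immunoproteasome and activator genes 6 fell, led by the activator Psme2 (-1.62) and the inducible catalytic subunits Psmb10 (-1.75) and Psmb8 (-1.76). Heat shock chaperones fell in 8 of 10, with Hspa8 at -1.03 and Hspa1a at -1.02, and 9 of 16 ubiquitin and delivery genes fell. Of the 8 ligase genes listed for muscle 3 rose instead, against 21.2% of all genes called higher: Fbxo21 (0.67), Fbxo31 (0.46) and Trim32 (0.33). Leukocyte markers moved as well: 2 of 5 were called lower, and their summed level was 380 to 862 CPM in Control and 263 to 535 CPM in Deficient uteri. Endothelial markers rose in 3 of 3 (156 to 236 CPM against 222 to 385 CPM), erythroid markers fell in 2 of 3, and 0 of 3 proliferation markers was called. Their part in the fall of the subunit genes was not tested.

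**Figure D2:**
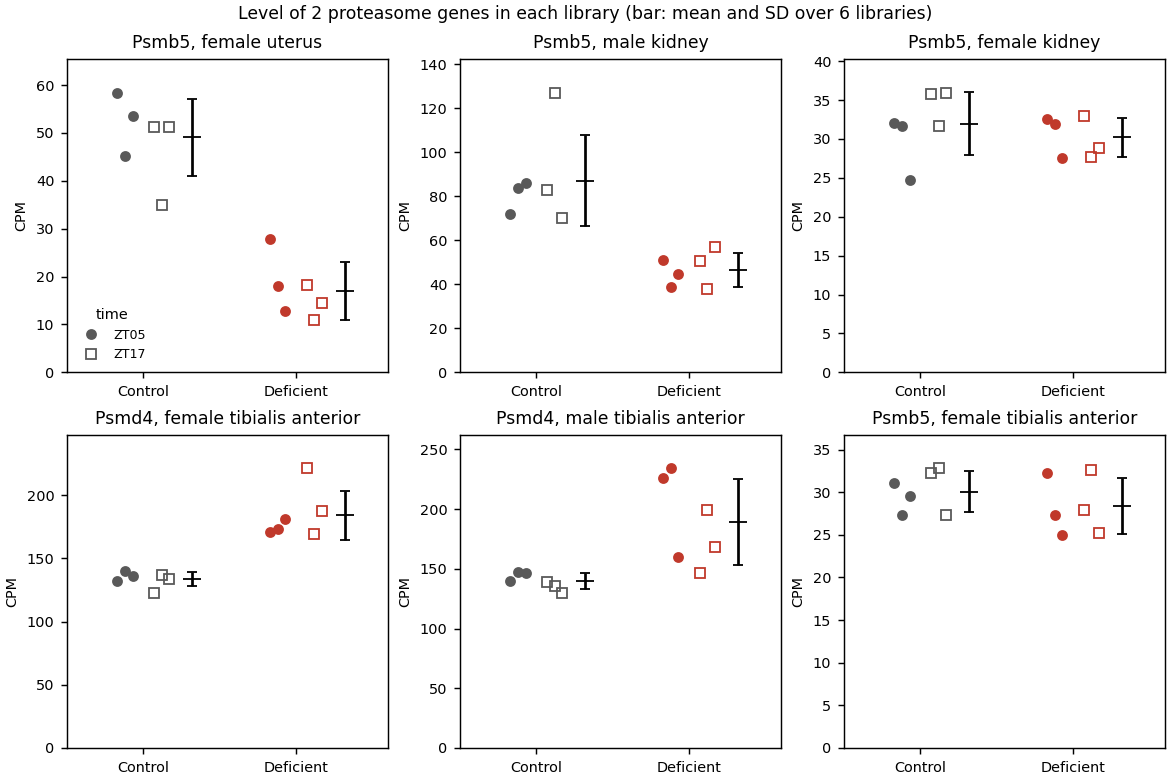
Level in CPM of Psmb5 and Psmd4 in each library, Control and Deficient, for 6 tissue and sex pairs; circles are ZT05, open squares ZT17, and bars show the mean and SD over 6 libraries. Psmb5 is lower in every Deficient uterus and male kidney than in every Control one, its arms overlap in the female kidney and tibialis anterior, and Psmd4 is higher in every Deficient tibialis anterior of females.

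In the male kidney the subunit genes fell by a smaller step. Of 34 members tested, 26 were called lower and 0 higher, against 18.7% of all genes called lower. Their median log2 difference was -0.37, beside 0.03 over all genes. By role, 7 of 7 beta, 5 of 6 ATPase, 3 of 3 other base and 7 of 8 lid genes fell, while 3 of 7 alpha and 1 of 3 chaperone genes did. Leaving out any 1 of the 12 libraries gave 21 to 28 members called lower.

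Psmb5 led in the male kidney as it was among the largest changes in the uterus. It stood at 70.2, 83.2 and 127 CPM (lowest, median, highest) in Control and 37.8, 47.4 and 57.1 CPM in Deficient males. The arms did not overlap, and the log2 difference was -0.90 (SE 0.14, adjusted p 0.000549 by edgeR). The lid gene Psmd13 went from 102, 121 and 151 CPM to 70.8, 83.4 and 91.7 CPM, a log2 difference of -0.54 (adjusted p 0.00121 by edgeR) without overlap. The ATPase Psmc4 fell by 0.59 without overlap. Its ring neighbour Psmc5 fell by 0.45 and the lid gene Psmd11 by 0.31, both with overlapping arms. In all, 10 of 34 members had Deficient levels wholly below Control levels, beside 7.97% of all genes.

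The summed level of the 36 genes in male kidneys was 4008 to 6095 CPM in Control and 3234 to 3964 CPM in Deficient mice. These did not overlap, but over all counts, without TMM scaling, the sums did, at 3625 to 4732 CPM and 3250.0 to 3956 CPM. The ratio of the Control to the Deficient mean was 1.32 on the first scale and 1.116 on the second. In the uterus the arms were apart on both scales, with ratios of 1.64 and 1.39. Genes that feed the proteasome fell too, with 7 of 16 ubiquitin and delivery genes called lower, among them the segregase Vcp (-0.70) and the polyubiquitin gene Ubb (-0.68). Pomp (-0.64) and the ubiquitin receptor Adrm1 (-0.77) were the 2 of 10 assembly and bound-enzyme genes called lower, and 4 of 10 heat shock chaperones fell, led by Dnaja1 (-0.66) and Hsp90aa1 (-0.66). Psme3 (-0.41) and Psmf1 (-0.31) were the 2 of 8 immunoproteasome and activator genes that fell. The counts of 2 of 10 and 2 of 8 lie near the 18.7% of all genes called lower in this organ. Among regulators, Nfe2l2, the NRF2 transcription factor, rose by 0.48 and Ddi2, the protease that activates NRF1, by 0.33, while Keap1, which targets NRF2 for degradation, fell by 0.45. Fbxo32 rose by 0.63. Erythroid markers fell in 3 of 3 (327 to 626 CPM summed in Control, 80.9 to 327 CPM in Deficient) and proliferation markers in 2 of 2 (5.84 to 13.4 CPM against 1.51 to 3.87 CPM). Of the fibroblast markers 2 of 3 were called higher and 1 lower, of the leukocyte markers 1 of 4 lower, and of the adipocyte markers 1 of 4 higher. Their part in the result was not tested.

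Female kidneys did not share this fall. Of 34 members 0 was called lower and 1 higher, against 6.23% of all genes called higher: the chaperone Psmd9, at 25.5, 27.8 and 31.1 CPM in Control and 32.7, 35.8 and 47.9 CPM in Deficient females (log2 difference 0.41, SE 0.08, adjusted p 0.00661 by edgeR). Psmb5 stood at 24.7, 31.8 and 36.0 CPM in Control and 27.5, 30.4 and 32.9 CPM in Deficient females, and the arms overlapped (log2 difference -0.08, SE 0.08). Summed levels were 3271 to 3656 CPM and 3169 to 3844 CPM. Erythroid and proliferation markers were called lower in 3 of 3 each in the female kidneys.

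The difference between the sexes was itself tested. In the kidney the female response exceeded the male response in 22 of 34 members, with 0 in the other direction, against 8.11% of all genes. Psmd4, a ubiquitin receptor of the base, showed it with the smallest adjusted p: it went from 148, 177 and 241 CPM to 117, 128 and 142 CPM in males and from 84.8, 88.1 and 92.8 CPM to 87.9, 91.9 and 104 CPM in females. The responses differed by 0.58 on the log2 scale (SE 0.11, adjusted p 0.00175 by edgeR). The beta-ring genes Psmb4 (0.51, adjusted p 0.0036), Psmb5 (0.84, SE 0.18, adjusted p 0.004) and Psmb3 (0.61, adjusted p 0.00486) followed in the same edgeR test. The median over the 34 members was 0.41. Control males stood above Control females for both Psmb5 and Psmd4 without overlap, and since all these males belonged to the second set of animals, sex and set cannot be told apart. Over the 16 tissues with both sexes, these 22 were the sole calls among 550 pairs, where 0.632% of all genes were called with a higher and 0.516% with a lower female response. Without replicate 1, 2 or 3 in every group, 0 to 7 members were called in the kidney.

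**Figure D3:**
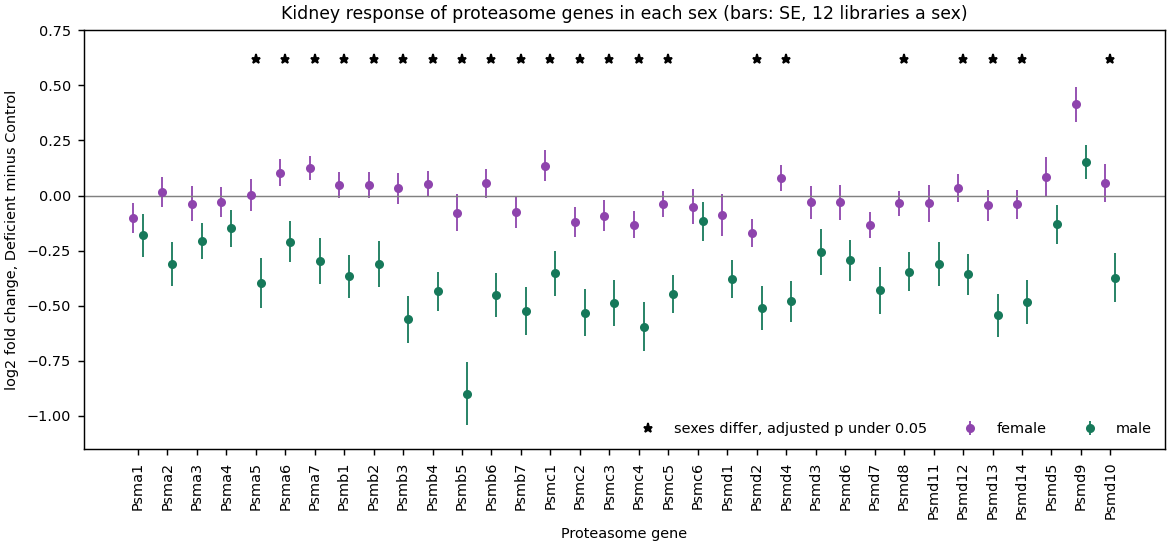
Log2 fold change, Deficient minus Control, of each proteasome gene tested in the kidney of females and males, with bars of 1 SE (12 libraries a sex); stars mark genes whose responses differ between the sexes at adjusted p under 0.05. The male values lie below the female values for the 22 starred genes, with Psmb5 lowest at -0.90.

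Hindlimb muscle of females moved the other way. In the tibialis anterior 25 of 34 members were called higher and 0 lower, against 16.1% of all genes called higher, and the median difference was 0.28. In the quadriceps 12 of 34 were called higher (8.99% of all genes), in the EDL 12 of 34 (15% of all genes) and in the soleus 7 of 34 (7.47% of all genes). By role in the tibialis anterior, 6 of 7 alpha, 5 of 7 beta, 5 of 6 ATPase, 3 of 3 other base and 6 of 8 lid genes rose, and 0 of 3 chaperone genes was called. Chaperone genes were called in 0 of 3 in the quadriceps, EDL and soleus as well.

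Psmd4 had the smallest adjusted p in the tibialis anterior. It stood at 123, 135 and 140.2 CPM in Control and 169.6, 177 and 221 CPM in Deficient females, without overlap (log2 difference 0.46, SE 0.07, adjusted p 0.000338 by edgeR). The alpha-ring gene Psma7 rose by 0.46 and the base scaffold Psmd2 by 0.42. The lid gene Psmd8 made the largest of these steps, from 114, 124 and 136 CPM to 157, 200.3 and 307 CPM, a log2 difference of 0.78 (adjusted p 0.000495 by edgeR). Psmd11 (0.30) and Psmc4 (0.27) were called higher with smaller differences. The catalytic gene Psmb5 differed by -0.08 (SE 0.08, adjusted p 0.503 by edgeR), at 27.3, 30.3 and 32.8 CPM in Control and 25.0, 27.6 and 32.7 CPM in Deficient females, so its arms overlapped nearly whole. In 12 of 34 members the Deficient levels lay wholly above the Control levels, beside 4.16% of all genes. Leaving out any 1 library gave 21 to 27 called members.

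In the quadriceps Psma7 led, at 96.9, 111 and 118 CPM in Control and 127, 148 and 193 CPM in Deficient females (log2 difference 0.49, SE 0.08, adjusted p 0.00178 by edgeR). Every Deficient value lay above every Control value. Psmd8 rose by 0.62, Psmd2 by 0.39 and Psmb4 by 0.36. Psmb5 differed by -0.02 (SE 0.10), and Psmc4 (0.21, adjusted p 0.0876 by edgeR) and Psmd11 (0.21, adjusted p 0.0869) did not pass the test. In 6 of 34 members every Deficient level exceeded every Control level, beside 2.11% of all genes. With both sexes in 1 fit 0 members were called in the female quadriceps, and without replicate 1, 2 or 3 in every group 2 to 8. The count fell to 7 without Control ZT17 replicate 2 and lay between 8 and 17 without each other library in turn.

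In the EDL Psma7 again had the smallest adjusted p, at 112, 117 and 129 CPM in Control and 144, 149.996 and 199 CPM in Deficient females (log2 difference 0.43, SE 0.07, adjusted p 0.000503 by edgeR). Its arms did not overlap. Psmb3 rose by 0.31, Psmd4 by 0.53 and Psmd8 by 0.66, with Psmc4 (0.25) and Psmd11 (0.24) also called. Psmb5 differed by 0.04 (SE 0.07). Arms lay apart in this way in 10 of 34 members and 4.35% of all genes. Without Deficient ZT17 replicate 2 the count of called members was 20, and without each other library in turn 10 to 13.

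The 7 members called in the female soleus were Psmd4 (0.31), Psmb1 (0.29), Psmd1 (0.29), Psmc1 (0.27), Psmd3 (0.27), Psma6 (0.25) and Psma7 (0.24). Psmd4 went from 159, 178 and 189 CPM to 204, 219.8 and 228 CPM without overlap, while the arms of Psma7 overlapped. These genes share no single role: they belong to the core particle, the ATPase ring, the base and the lid. In the female soleus erythroid markers were called lower in 3 of 3, leukocyte markers in 2 of 3 and proliferation markers in 2 of 2, and their part was not tested.

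In the female gastrocnemius tendon 10 of 34 members were called higher and 0 lower, against 9.88% of all genes called higher, with a median difference of 0.24. This sample carried skeletal muscle RNA: the summed level of Acta1, Ckm, Myh4 and Mylpf was 78094 to 109450 CPM in Control and 66203 to 139379 CPM in Deficient females. Psmd8 stood at 151, 177 and 215 CPM in Control and 255, 295 and 514 CPM in Deficient females, without overlap (log2 difference 0.90, SE 0.15, adjusted p 0.003 by edgeR). Psmd4 rose by 0.77, the lid gene Psmd3 by 0.68, Psmd2 by 0.59 and Psmc4 by 0.42. Psmb5 (0.31, adjusted p 0.0916 by edgeR) and Psmd11 (0.24, adjusted p 0.134) did not pass the test. Erythroid and leukocyte markers were called lower in 2 of 3 each and proliferation markers in 2 of 2 in this sample, and their part in the rise was not tested. With both sexes in 1 fit 0 members were called in this tissue. Without replicate 1, 2 or 3 in every group, 3 to 5 members were called, and 6 without Control ZT05 replicate 1, Control ZT17 replicate 1, Control ZT17 replicate 3 or Deficient ZT05 replicate 2.

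The female gastrocnemius itself gave 0 called members of 34 by edgeR (5 at an unadjusted p under 0.05, 2 by DESeq2), and that count changed without 1 Control library. Psmd8 stood at 123, 136 and 159 CPM in the Control females at ZT05 and at 149.9, 311 and 153 CPM at ZT17, against 226, 215 and 231 CPM and 428, 165 and 269 CPM in Deficient females. The library at 311 CPM, Control ZT17 replicate 2, had a summed level of 9154 CPM where the other 5 Control libraries held 4398 to 4903 CPM. Without it, an analysis added after its level was seen, 4 of 34 members were called higher, beside 7.63% of all genes. They were Psmd8 (log2 difference 0.81, SE 0.19, adjusted p 0.0159 by edgeR), Psmd4 (0.65), Psma7 (0.50) and Psmd3 (0.44). Without Deficient ZT17 replicate 2 the called members were Psmd2 (0.64) and Psmd8 (0.73), and without each other library 0. The share of all genes called without Deficient ZT17 replicate 2 is not given here, so these calls have no background beside them.

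Genes of male muscles were also called higher, in smaller numbers. In the tibialis anterior 10 of 34 members were called higher (4.45% of all genes), in the EDL 7 of 34 (5.38% of all genes) and in the soleus 5 of 34 (5.48% of all genes), with 0 called lower in these 3 muscles. Psma7 led in the tibialis anterior, at 96.8, 100.5 and 108 CPM in Control and 111, 133 and 178 CPM in Deficient males (log2 difference 0.44, SE 0.09, adjusted p 0.00882 by edgeR). It led in the EDL too, at 103, 104 and 114 CPM against 116, 132 and 159.6 CPM (0.33, SE 0.08, adjusted p 0.0156 by edgeR). Neither pair of arms overlapped. In the soleus Psmd4 led, at 157, 167 and 179 CPM against 197, 211 and 269.5 CPM (0.40, SE 0.08, adjusted p 0.00735 by edgeR), also without overlap.

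Further called members in the male tibialis anterior were Psmb3 (0.48), Psmd4 (0.43) and Psmb4 (0.38). In the EDL they were Psmd2 (0.29), Psmb3 (0.26) and Psmd1 (0.16), and in the soleus Psmb1 (0.27), Psmc3 (0.25) and Psmc1 (0.22). Psmb5 was not called in any of the 3 muscles, with differences of 0.28 (SE 0.13, adjusted p 0.198 by edgeR), -0.07 (SE 0.10) and 0.02 (SE 0.10). Psmc4 and Psmd11 were not called there either, with Psmc4 at 0.26, 0.12 and 0.18 and Psmd11 at 0.07, 0.19 and -0.01. Of the other-cell markers in the EDL of males, 2 of 3 erythroid, 1 of 3 leukocyte and 1 of 3 fibroblast genes were called lower, and in the tibialis anterior 1 of 3 leukocyte and 1 of 3 fibroblast genes. In the soleus 1 of 3 fibroblast genes and the 1 proliferation gene tested were lower. In each of the 3 muscles 1 of 3 endothelial genes was lower too, and the part of these cells was not tested. Without replicate 1, 2 or 3 in every group, 0 to 3 members were called in the male tibialis anterior, 0 in the EDL and 0 to 4 in the soleus. The counts rested on single libraries. In the tibialis anterior 1 to 20 members were called without 1 library, and the count stayed within 1.5 times of 10 solely without Deficient ZT05 replicate 1, Deficient ZT05 replicate 2 or Deficient ZT17 replicate 1. In the EDL 2 to 12 were called, near 7 solely without Deficient ZT17 replicate 1, and in the soleus 3 to 9, within 1.5 times of 5 solely without Control ZT05 replicate 2, Control ZT17 replicate 1, Deficient ZT05 replicate 1 or Deficient ZT17 replicate 1. Leaving out Deficient ZT05 replicate 3 gave the highest count in each, 20, 12 and 9.

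Larger differences that did not pass the test stood in the male gastrocnemius tendon. Its mitochondrial and rRNA-like reads took 9.01% to 63.2% in Control and 15.6% to 44.5% in Deficient males, and 2 of the 6 Control libraries but no Deficient library came from the second set of males. There 32 of 34 members had a positive difference, with a median of 0.70 and 17 at an unadjusted p under 0.05. The lowest, median and highest levels of Psmd4 were 171, 366 and 642 CPM in Control and 479.8, 834 and 1478 CPM in Deficient males, and the arms overlapped (log2 difference 1.23, SE 0.37, adjusted p 0.208 by edgeR). The arms of Psma7 did not overlap, at 119, 176 and 189 CPM in Control and 194, 338 and 614 CPM in Deficient males (1.22, SE 0.32, adjusted p 0.189 by edgeR). The male quadriceps and gastrocnemius had medians of 0.39 and 0.48, with 29 and 33 of 34 members positive. In the male gastrocnemius 3 of 6 Control and 0 of 6 Deficient libraries were over 50% mitochondrial and rRNA-like, with highest shares of 88.3% and 34.2%, and 1 Control and 2 Deficient libraries came from the second set. In the male quadriceps 3 of 6 Control and 2 of 6 Deficient libraries were over 50%, and 2 Control and 1 Deficient came from the second set. Without the libraries over 50% mitochondrial and rRNA-like reads these 3 tissues gave 0 calls.

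The ligases of muscle wasting rose alongside. In females Fbxo32 rose by 1.93 in the tibialis anterior, 1.87 in the quadriceps, 1.92 in the EDL and 1.93 in the gastrocnemius tendon, and Trim63 by 1.29 in the first and 1.55 in the last of these. In males Fbxo32 rose by 1.10 in the tibialis anterior and 1.19 in the EDL, and Trim63 by 0.73 and 0.68. Of the 8 ligase genes listed, 3, 3, 5 and 4 rose in those female tissues, against 16.1%, 8.99%, 15% and 9.88% of all genes. Fbxo31 was among these ligases at 0.34, 0.61, 0.72 and 0.88. The polyubiquitin gene Ubb rose by 0.49, 0.43, 0.53 and 0.80 and Nploc4, which works with Vcp to extract substrates, by 0.58, 0.54, 0.63 and 0.93. Among the regulators, Mafk, a partner of NRF1 and NRF2 on DNA, rose by 0.46, 0.59, 0.74 and 0.86 in the same order.

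Heat shock chaperones fell in those muscles while the subunit genes rose. In females 8 of 10 were called lower in the tibialis anterior, led by Hspb1 (-0.66) and Cryab (-0.44), 6 of 10 in the quadriceps and 5 of 10 in the EDL, against 16.8%, 10.1% and 15.4% of all genes called lower. The immunoproteasome activator Psme1 also fell, by 0.55 in the tibialis anterior, 0.45 in the quadriceps and 0.34 in the EDL of females and by 0.35 and 0.37 in the EDL and soleus of males. Markers of other cells moved in the same female muscles: erythroid genes were called lower in 3 of 3 and leukocyte genes in 2 of 3 in the tibialis anterior and quadriceps, and in 3 of 3 each in the EDL. Proliferation markers were called lower in 1 of 1, 2 of 2 and 2 of 2 of those tested in the tibialis anterior, quadriceps and EDL, and fibroblast markers in 3, 1 and 2 of 3. In the tibialis anterior the summed leukocyte markers were 58.8 to 95.7 CPM in Control and 44.4 to 67.5 CPM in Deficient females, and the summed fibroblast markers 734 to 911 CPM and 547 to 699 CPM. The 4 adipocyte markers fell there as well (18.5 to 48.2 CPM and 7.54 to 13.6 CPM), and the part of these cells in the rise of the subunit genes was not tested.

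Reference sequence upstream of the start site is shown for 4 members. The catalytic genes Psmb5 and Psmb6 were called higher in no tissue of either sex, a trait shared by Psma1, Psmd5, Psmd10, Psmd13 and Psmd14. Psma8, tested in 7 female and 3 male tissues, was called higher in none of them either. Psma7 and Psmd4 were called higher in 6 female tissues each. RefSeq on GRCm38.p6 gave a window from 250 bases before to 50 bases after the start for 29 of the 36 members. The letters TGACNNNGC, the core of the element bound by NRF1 and NRF2, occurred on either strand in 5 of these 29 members (Psmb5, Psmb6, Psmc6, Psmd9 and Psmd12) and in 12.4% of 32851 windows. CCAAT occurred in 12 of 29 members and 37.4% of windows, and GGAAGTG, an ETS-type letter string, in 7 of 29 members and 11% of windows. Members with CCAAT include Psma1, Psmd10 and Psmd14, called higher in 0 of 18 female tissues. Psmd9, with TGACNNNGC, was called higher in 3. The runs below read 5′ to 3′ on the gene's strand, with the match in capitals. They lie at chr14:54618023-54618077 (minus strand, Psmb5), chr11:70525313-70525356 (plus strand, Psmb6), chr2:180042621-180042695 (minus strand, Psma7) and chr3:95042670-95042744 (minus strand, Psmd4).
Psmb5: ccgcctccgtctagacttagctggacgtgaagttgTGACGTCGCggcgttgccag
Psmb6: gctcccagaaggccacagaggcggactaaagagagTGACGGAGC
Psma7: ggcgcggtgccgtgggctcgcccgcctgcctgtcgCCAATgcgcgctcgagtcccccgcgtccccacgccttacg
Psmd4: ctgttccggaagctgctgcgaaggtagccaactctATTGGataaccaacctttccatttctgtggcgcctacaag
The TGACNNNGC match lies 47 bases before the start in Psmb5 and 9 bases before it in Psmb6. The CCAAT match lies 196 bases before the start in Psma7, and in Psmd4 ATTGG, which is CCAAT on the other strand, lies 95 bases before it. A match describes the letters in the window and is not evidence of a bound site.

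Summed over female tissues, the members that rose most often were Psma7 and Psmd4, in 6 of 18 tissues each, and Psmb1, Psmb3 and Psmd3, in 5 each. Psmb5, Psmb6, Psma1, Psmc5, Psmd5, Psmd10, Psmd13 and Psmd14 rose in 0 of 18. Psmd9 stood alone in its tissues, called higher in the kidney (0.41), liver (0.33) and ovary (0.45) of females, where 0, 1 and 2 other members were called. It shares exon bases with the annotated gene Gm26745, and since the strand setting of the counting is not given in the sources used here, reads of overlapping genes cannot be separated. Psmb5 shares exon bases with the microRNA gene Mir686, Psmb7 with Nek6, Psmd13 with Sirt3 and Psmc3 with Slc39a13. Psma4, Psma5, Psmd1 and Psmd3 also share exon bases with other annotated genes.

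In the female spleen 7 of 35 members were called lower, against 6.64% of all genes, with a median of -0.17. The lid gene Psmd7 went from 71.5, 84.2 and 103 CPM to 60.9, 70.2 and 74.1 CPM, with overlapping arms (log2 difference -0.30, SE 0.07, adjusted p 0.0213 by edgeR). The deubiquitinating subunit Psmd14 fell by 0.26, Psma5 by 0.26, Psmc6 by 0.24 and Psmd11 by 0.22, while Psmb5 (-0.15) and Psmc4 (-0.13) did not pass the test. Pomp fell by 0.33 and Usp14, a deubiquitinating enzyme bound to the proteasome, by 0.31. Erythroid markers fell in 3 of 3 in this organ, from 1531 to 15338 CPM summed in Control to 172 to 745 CPM in Deficient females, and proliferation markers in 3 of 3 (264 to 1179 CPM against 83.5 to 249 CPM), and their part in the members' fall was not tested. Without replicate 1, 2 or 3 in every group 0 to 4 members were called, and 0 with both sexes in 1 fit.

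The remaining female organs showed few calls. In brown fat 4 of 34 members rose (4.51% of all genes): Psma6, from 154, 166 and 185 CPM to 218, 241 and 284 CPM (log2 difference 0.55, SE 0.08, adjusted p 0.00343 by edgeR, arms apart), Psma7 (0.27), Psmb3 (0.25) and Psmc4 (0.24). In the heart Psmd4 (0.31) and Psmd3 (0.25) rose and Psma4 and Psma1 fell by 0.32 and 0.31, against 7.5% of all genes higher and 8.06% lower. In the liver Psmd9 rose and the ATPase Psmc2 fell by 0.22 (6.52% of all genes higher, 7.43% lower). In the ovary Psmd9 rose and Psmc5 and Psmd8 fell by 0.30 and 0.35 (4.64% higher, 5.78% lower). In the pituitary the lid gene Psmd12 fell by 0.35 (1.99% lower). In the heart, liver, ovary and pituitary these counts are near the share of all genes called.

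Time of day was compared as ZT17 minus ZT05. In Control females 5 pairs of a member and a tissue were called higher and 4 lower of 619. These shares, 0.808% and 0.646%, lay below the 2.27% and 2.41% of all genes. In brown fat Psmd4 stood at 146, 130.1 and 128 CPM at ZT05 and 101, 103 and 97.4 CPM at ZT17, without overlap (log2 difference -0.42, SE 0.09, adjusted p 0.0064 by edgeR). Psmc4, Psmd11 and Psmd6 fell by 0.38, 0.41 and 0.42 there and the ATPase Psmc2 rose by 0.46, where 11.8% of all genes were lower and 11.3% higher. Among the members tested in brown fat 11.8% were lower, the same share, and 2.94% higher, a smaller one. In the Deficient females 9 members were lower at ZT17 in brown fat (5.77% of all genes), led by Psmc4, at 147, 126 and 144 CPM at ZT05 and 90.8, 92.2 and 93.6 CPM at ZT17 (-0.59, SE 0.09, adjusted p 0.00401 by edgeR). Psmd11 (-0.59), Psmd4 (-0.56) and Psmd6 (-0.50) followed.

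The lid gene Psmd11 was higher at ZT17 in the kidney of 3 groups. In Control females it stood at 77.5, 67.6 and 89.7 CPM at ZT05 and 111, 115 and 110.5 CPM at ZT17, and in Control males at 80.1, 113 and 87.7 CPM and 142, 166 and 149 CPM. Neither pair of groups overlapped. The log2 differences were 0.52 (SE 0.12, adjusted p 0.0179 by edgeR; 4.18% of all genes higher) and 0.71 (SE 0.14, adjusted p 0.0296; 0.863% of all genes higher). In Deficient females the difference was 0.50 (2.64% of all genes higher). Deficient males, at 105, 78.9 and 83.6 CPM and 110.3, 94.0 and 107 CPM, were not called. Psmd7 also rose in the kidney of Control females, by 0.30. In the liver Psmd14 (0.51) and Psmd5 (0.43) were higher at ZT17 in Control females (9.33% of all genes) and Psmd7 (0.43) and Psmc5 (0.38) in Deficient females (4.26% of all genes). In the lung of Deficient females Psmb3 was lower by 0.37 on the log2 scale (0.658% of all genes lower).

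In Control males 1 pair was called higher and 8 lower of 580, against 0.836% and 0.604% of all genes. Of the 8 lower calls 7 lay in the lung (3.11% of all genes lower). Psmb7 stood at 74.7, 119 and 90.7 CPM at ZT05 and 31.4, 51.6 and 38.0 CPM at ZT17 there, without overlap (log2 difference -1.23, SE 0.26, adjusted p 0.0273 by edgeR). Psma6 fell by 0.98 and Psma1 by 0.73. In the male lung the mitochondrial and rRNA-like share was 42.3% to 66.1% of reads in Control mice, 2 of the 6 libraries were over 50%, and without the libraries over 50% 0 of these lung calls was left. In male brown fat Psmd14 was lower at ZT17 by 1.15 on the log2 scale (1.27% of all genes lower). All 6 Control libraries there held 73.6% to 94.6% mitochondrial and rRNA-like reads.

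Whether the response to deficiency differed between the times was tested directly. In females 0 of 619 pairs was called by edgeR (0.338% of all genes higher, 0.36% lower), and DESeq2 called 5. An unadjusted edgeR p under 0.05 was found in 46 of the 619 pairs. Over all genes it was found in 36844 of 287605 pairs, a larger share. In males 3 pairs were called higher and 2 lower of 580, all in brown fat (4.31% of all genes higher and 8.3% lower there, 0.222% and 0.461% over all tissues). Psmd14 stood at 80.5, 114 and 91.4 CPM in Control and 80.8, 48.6 and 52.4 CPM in Deficient males at ZT05, and at 33.8, 43.3 and 51.6 CPM and 71.2, 85.6 and 90.3 CPM at ZT17. The responses differed by 1.59 on the log2 scale (SE 0.43, adjusted p 0.0252 by edgeR). Psmb5 (1.73) and Psma1 (1.23) differed in the same direction and Psmd12 (-1.79) and Psmc2 (-1.46) in the opposite one. In male brown fat 11 of 12 libraries had over 50% mitochondrial and rRNA-like reads, so the comparison without them could not be fitted. Over all counts, these reads included, the 36 genes summed to 761 to 1145 CPM at ZT05 and 239 to 263 CPM at ZT17 in Control males. In Deficient males the sums were 123 to 489 CPM at ZT05 and 746 to 2760 CPM at ZT17. The library at 2760 CPM was the sole one from the second set of males. The part of the mitochondrial and rRNA-like share in these calls was not tested.

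Across tissues the levels of the 36 genes differed mostly by small factors, with clear exceptions in the testis. Psma8 reached 209 CPM in the testis and 2.30 CPM in the next tissue, the spleen. In the testis it stood at 197, 213 and 215 CPM in Control and 184, 213 and 220.3 CPM in Deficient males (log2 difference 0.00, SE 0.06, adjusted p 0.992 by edgeR). Psmc3 stood at 783 CPM in the testis and 291 CPM in the next tissue, while Psma1 (35.2 CPM), Psma7 (42.0 CPM), whose place in the ring Psma8 takes in germ cells, Psmb1 (70.3 CPM) and Psmd3 (53.8 CPM) had their lowest level there. Psmb11, the thymus-type catalytic subunit, had 202 reads in all libraries together and was tested in no tissue. Psma8 was tested in 7 female and 3 male tissues and called in none.

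Per kilobase of exon, so that genes can be compared, Psmc5 (98.7) and Psma6 (98.4 CPM per kilobase) had the highest median Control levels over the 19 tissues and the chaperones Psmd5 (4.44) and Psmd9 (2.72) the lowest among members found in all tissues. Psmb5 (33.1) lay below its catalytic partners Psmb6 (83.8) and Psmb7 (51.1 CPM per kilobase). The length is that of all annotated exons merged, 1394 bases for Psmc5, 1234 for Psma6, 7230 for Psmd5 and 7248 for Psmd9. The order depends on it. Without it, the median of Psmd10 (13.4 CPM) lay below those of Psmd5 (32.1 CPM) and Psmd9 (19.7 CPM). Psmb7 (175 CPM) then lay above Psmb6 (157 CPM), with Psmb5 (29.7 CPM) still below both. The mean summed level in Control mice was highest in the adrenal gland (5185 CPM) and uterus (5156 CPM) and lowest in the liver (3084 CPM) and pituitary (2962 CPM). With mitochondrial and rRNA-like reads in the denominator the adrenal gland (4802 CPM) and uterus (4595 CPM) stayed first and the liver (1481 CPM) became the lowest. This liver value averages 2703 CPM in Control females and 259 CPM in Control males. In the latter, mitochondrial and rRNA-like genes took 85.6% to 95.4% of the reads. In Control females the liver stood above the pituitary (2404 CPM) and brown fat (2649 CPM) on this scale.

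**Figure D4:**
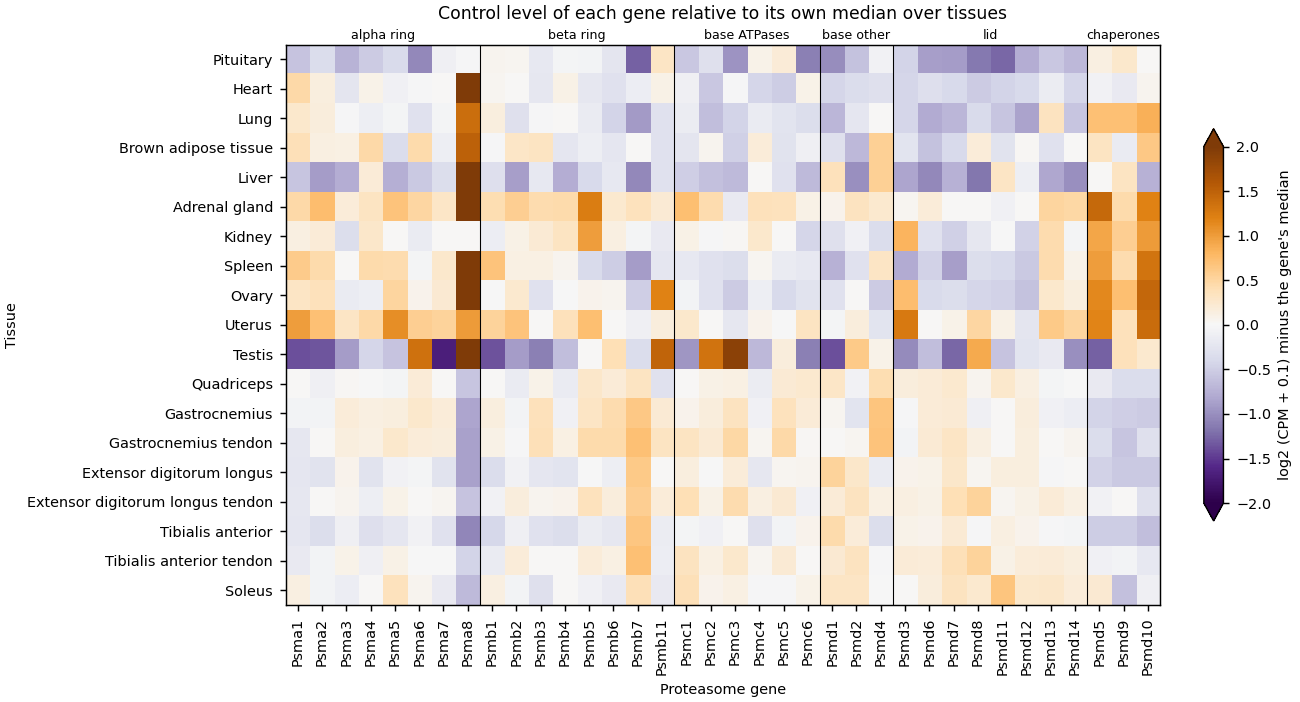
Control level of each proteasome gene (columns, grouped by role) in each tissue (rows), as log2 of CPM plus 0.1 minus the gene's median over tissues. The testis row holds both the highest level of Psma8, at 209 CPM, and the lowest of Psma1 and Psma7.

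**Figure D5:**
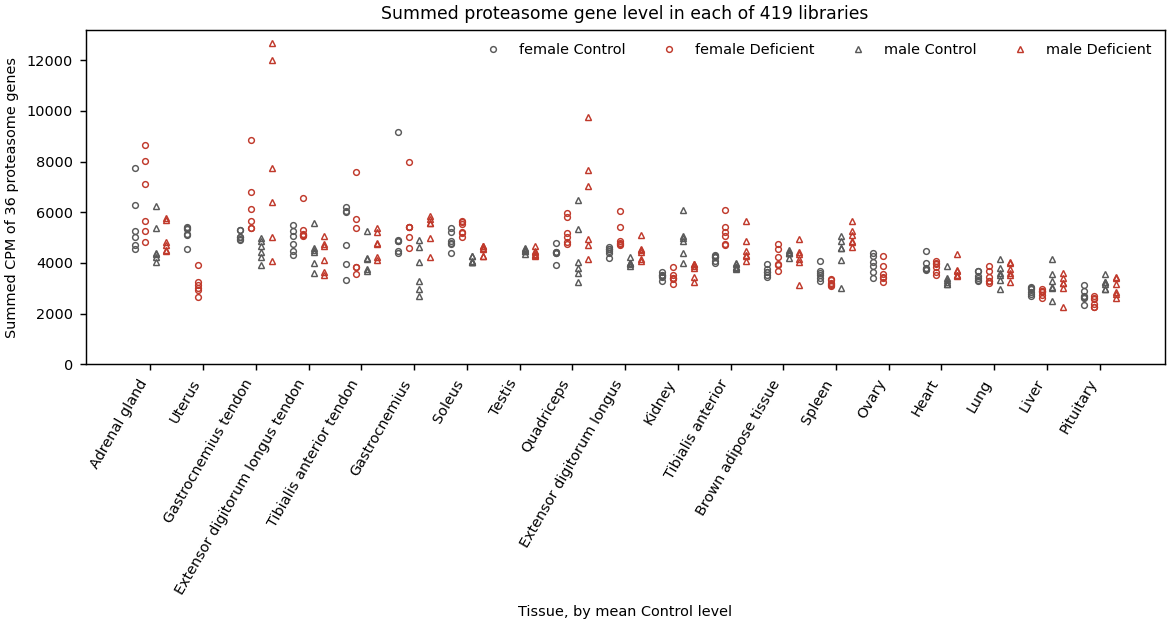
Summed CPM of the 36 proteasome genes in each of the 419 libraries, by tissue in order of the mean Control level; circles are females, triangles males, grey Control and red Deficient. Control and Deficient sums are apart in the uterus (4550 to 5424 against 2654 to 3936 CPM) and in the male kidney (4008 to 6095 against 3234 to 3964 CPM), the latter on this scale but not over all counts. Deficient sums lie wholly above Control sums in the female tibialis anterior, EDL and gastrocnemius tendon and in the male tibialis anterior. In the female tibialis anterior they are 4007 to 4314 CPM in Control and 4719 to 6099 CPM in Deficient mice. Over all counts the arms overlap there, with a highest Control sum of 3594 CPM and a lowest Deficient sum of 3504 CPM.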

How the data were processed

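Total RNA (500 ng) entered stranded poly(A) libraries, per the labels' protocols. The authors deposited whole-number read counts per gene; the submitters' processing notes name FastQC 0.11.9, cutadapt 4.1, STAR 2.7.10a, DESeq2 1.34.0 and GRCm38, while the counting tool, its strand setting and the annotation are not given in the sources used here. Samples were joined to columns by label, and libraries within a tissue were checked for identical values (0 found). Each tissue and sex was fitted alone in edgeR 4.0.16 (R 4.3.3) with 1 coefficient per treatment and time, TMM scaling, edgeR's filter (minimum count 10, minimum total 15) and quasi-likelihood tests; the sex difference came from a fit of both sexes. Both edgeR and DESeq2 were tested on simulated data.

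Levels used TMM-scaled library sizes. Their geometric mean in each tissue and sex was set to that of the reads outside mitochondrially encoded and rRNA-like genes. Exon lengths came from GENCODE M21. Named members were, in up to 6 tissues per sex, the 4 called with the smallest adjusted p, plus Psmb5, Psmc4 and Psmd11 called or not; for times and differences up to 4 pairs, and up to 3 genes per partner list. Members called in the remaining female organs and the female soleus, and the per-tissue examples of roles, were named after their values were seen. The members and lists were chosen with earlier results of these data known. Alternatives were other size factors, filters, DESeq2 1.42.0, a replicate block, a term for the set of males, both sexes in 1 fit, and left-out libraries. Figures used matplotlib 3.10.9 in Python 3.11.15.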

Additional observations from a re-analysis of the deposited data

Results flagged for a closer look

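Among 90 arms of 5 or 6 libraries examined for 1 library far from the others, of which chance flags about 1 in 20, 4 single-gene levels stood apart. Psmb2 was 96.2 CPM in 1 Control uterus, next to 120 to 134 CPM in the others. Psmd4 was 221 CPM in 1 Deficient female tibialis anterior, next to 170 to 187 CPM. Psmd8 was 514 CPM in 1 Deficient female gastrocnemius tendon, next to 255 to 335 CPM. Psmb5 was 127 CPM in 1 Control male kidney, next to 70.2 to 85.9 CPM.

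The summed level of the 36 genes stood apart in 7 arms. The widest gap was in the female gastrocnemius, where 1 Control library reached 9154 CPM next to 4398 to 4903 CPM in the other 5, and 1 Deficient library 7962 CPM next to 4581 to 5431 CPM. In the heart 1 Control female library was at 4459 CPM (others 3733 to 3982), 1 Control male library at 3866 CPM (others 3182 to 3397) and 1 Deficient male library at 4339 CPM (others 3503 to 3738). A Control uterus was at 4550 CPM (others 5101 to 5424), and 1 Deficient female EDL tendon at 6548 CPM (others 5059 to 5296).

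Tested differences between responses were picked out in 2 tissues. In male brown fat the responses at ZT17 and ZT05 differed by 1.59 for Psmd14, -1.79 for Psmd12, -1.46 for Psmc2 and 1.73 for Psmb5 on the log2 scale. In the kidney the female and male responses differed by 0.58 for Psmd4, 0.51 for Psmb4, 0.84 for Psmb5 and 0.61 for Psmb3.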

How the results depend on the processing

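The counts of called pairs shifted most with the fit and with the libraries used. With both sexes in 1 fit, 42 male pairs were called higher in place of 22, and 0 members in the female quadriceps, gastrocnemius tendon and spleen. DESeq2 called 35 male pairs higher and 10 members in the male soleus in place of 5 (9 with the stricter filter). For time of day, both sexes in 1 fit gave 2 higher and 0 lower pairs in Control females and 8 and 22 in Control males, DESeq2 gave 10 higher in females and 4 higher and 13 lower in males, and no filter gave 4 higher in males. Without libraries over 50% mitochondrial and rRNA-like, 1 male pair was lower at ZT17. For the time difference of the response, females had 1 lower pair with DESeq2 size factors, 1 with the stricter filter and 5 with DESeq2, and males 7 higher and 1 lower with no filter, 20 higher with both sexes in 1 fit and 10 higher with DESeq2. With no filter, 12 pairs had a sex difference, 11 of them in the kidney, and 4 members fell in the spleen; DESeq2 called 3 pairs with a higher male response. The pituitary sum was 2606 CPM over all counts.

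Replicate numbers did not pair the libraries: the mean correlation of same-numbered libraries ran from -0.105 to 0.221, and in every tissue and sex at least 1 pair lay at or below -0.05. With the replicate block 67 female pairs were called higher and 44 lower, 21 male pairs higher and 24 lower, 17 pairs had a sex difference, 0 male pairs were higher at ZT17 and 7 had a higher time difference.

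Leaving 1 replicate number out of every group gave 23 to 69 female pairs higher and 30 to 35 lower, 1 to 7 male pairs higher and 11 to 23 lower, and 0 to 7 sex differences, also in the kidney. The uterus then had 29 to 30 calls, the female tibialis anterior 9 to 25, quadriceps 2 to 8, EDL 5 to 17, gastrocnemius tendon 3 to 5 and spleen 0 to 4, and the male kidney 11 to 23, tibialis anterior 0 to 3, EDL 0 and soleus 0 to 4. Time of day gave 0 to 1 higher and 0 to 2 lower pairs in females and 0 to 2 higher and 0 to 1 lower in males, and the male time difference 0 to 1 in each direction. Leaving out single libraries gave 30 to 32 calls in the uterus, 21 to 27 in the female tibialis anterior, 7 to 17 in the quadriceps, 10 to 20 in the EDL, 6 to 14 in the gastrocnemius tendon and 0 to 4 in the gastrocnemius (these last 2 chosen after seeing the data), and 21 to 28 in the male kidney, 1 to 20 in the tibialis anterior, 2 to 12 in the EDL and 3 to 9 in the soleus.

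Of 1520 alternative values of 88 named pairs, 1337 kept direction and side of the threshold, 177 lost the call, 6 gained one and 0 changed direction against a call. Libraries over 50% could be left out in the lung, quadriceps, gastrocnemius and gastrocnemius tendon of males alone, and a term for the set of males fitted in 5 tissues. In the simulation of the female soleus edgeR recovered 68% of genes changed 1.5-fold and 94% of those changed 2-fold. In that of the male liver it recovered 2% at 1.5-fold and 44% at 2-fold, so members with small differences may go uncalled. Of the calls in the simulated female soleus 16.8% were false with DESeq2 and 6.94% with edgeR. In the simulated male liver 7.55% were false with DESeq2 and 3.9% with edgeR.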

Other observations

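A Deficient female, replicate 1 of ZT17, carried the highest summed level of the 36 proteasome genes among the 6 Deficient females in 5 muscle samples of the same animal. Its sums were 6099 CPM in the tibialis anterior, 5983 CPM in the quadriceps, 6062 CPM in the EDL, 7962 CPM in the gastrocnemius and 8854 CPM in the gastrocnemius tendon, and 5603 CPM in the soleus, where another animal was higher. Replicate 2 of the same group was at 4732, 5043, 4751, 4581 and 5394 CPM in the first 5 of these. Psmd4 in the 2 animals was 221 and 170 CPM in the tibialis anterior and 303 and 184 CPM in the EDL. Mitochondrial and rRNA-like genes took 11.4% to 18.6% of the reads in these 5 samples of replicate 1.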
